A study of Mus musculus with 6 samples.

Results

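Amino acid transporter genes were followed in primary airway basal cells, the stem cells of the airway epithelium, taken from the tracheas of wild-type (WT) mice. The members were the genes whose symbol places them in the solute carrier families SLC1, SLC3, SLC6, SLC7, SLC36, SLC38 or SLC43, which gave 67 of the 56748 genes in the deposited table. Of these, 63 are carrier genes and 4 are genes named for lying on the opposite strand of a carrier. RNA was sequenced from 6 libraries after 4 days of culture, 3 of cells given UK-5099, which blocks pyruvate uptake into mitochondria, and 3 of cells given 3 inhibitors together. The combination held the ROCK inhibitor Y-27632, the TGF-beta receptor inhibitor A8301 and the BMP receptor inhibitor DMH-1. With no untreated group here, each value below is a difference between these treatments, and which of the groups moved cannot be told. The labels give no dose, animal age or sex, no other component of the medium (such as Y-27632 beside UK-5099), and no statement that replicates came from separate animals or cultures. The p-values therefore measure the spread between these libraries, which may be technical.

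Amino acids cross membranes on several kinds of carrier, many of which are also neurotransmitter carriers in the nervous system. Sodium-driven carriers of the SLC1, SLC6 and SLC38 families load the cell against a gradient. Exchangers of the SLC7 family swap a cytosolic amino acid for an outside one and reach the surface bound to a heavy chain of the SLC3 family. In epithelia these carriers supply leucine for growth control, glutamine for nitrogen and cystine for glutathione.

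The libraries held between 19909589 and 27037795 gene reads, and 1 read was worth 0.894 to 1.22 normalized counts (reads divided by the authors' size factor for the library). Genes whose mean reached 10 normalized counts were tested with limma on log2(normalized count + 1), and a gene is called higher or lower where its Benjamini-Hochberg adjusted p over all 15704 genes tested was under 0.05. Differences are log2 fold changes of UK-5099 minus 3 inhibitors with their standard error (SE), levels are means ± SD of 3 libraries, and folds are on that same log scale. The labelled cell type was borne by its markers: Krt5, the defining keratin, stood between 37166 and 126854 normalized counts in every library, and Trp63 between 3143 and 5655. The groups differed widely. The 13 basal markers summed to between 382434 and 407537 with UK-5099 against 200448 to 217034, with 10 called higher and 2 lower. The 2 lower were Ngfr (log2 -2.20) and Aqp3 (log2 -0.43). Of the squamous and hillock markers, 11 of 11 were higher. The 11 secretory markers summed to between 7336 and 9221 against 50359 to 53367, with 7 called lower of 7 tested. Most of that sum was Cbr2 (6150 ± 611 against 42903 ± 1197), and Scgb1a1 stood at 36.5 ± 4.32 against 170.9 ± 27.9. In bulk libraries fewer cells of a type and less RNA per cell cannot be told apart. Of other cell types, the endothelial markers summed to between 63.0 and 80.7 against 170.8 to 201.0 (0 higher and 2 lower of 3 tested), the ionocyte, tuft and neuroendocrine markers to 224.6 to 283.8 against 400.3 to 487.5 (0 and 4 of 4) and the neuronal and glial markers to 3700 to 3922 against 5221 to 5566 (2 and 1 of 3). The fibroblast markers summed to between 413.9 and 500.9 against 274.1 to 305.6 (1 and 0 of 1), the leukocyte markers to 495.6 to 708.8 against 530.8 to 561.8 (0 and 1 of 2) and the multiciliated markers to 231.6 to 263.1 against 185.9 to 241.2 (2 and 1 of 5). Most of the fibroblast sum was Fbln1 (457.3 against 285.9) and most of the leukocyte sum Cd68 (564.8 against 479.0). Most of the neuronal and glial sum was Mbp (2054 against 5146) with Tubb3 (1730 against 237.6), which went opposite ways. Among the markers called lower, Muc5b, Tie1, Cd74 and Insm1 reached the mean of 10 only through their 3-inhibitor libraries. They stood at 8.13, 5.51, 6.60 and 3.70 with UK-5099 against 29.6, 41.2, 27.7 and 19.9. The part of these marker differences in the results below was not tested. Cdh5 (endothelial), Col3a1 (fibroblast) and Rbfox3 (neuronal) were at 0 in every library and Ptprc (leukocyte) reached at most 1.03. Xist was higher with UK-5099 (24276 ± 1528 against 14246 ± 129) and 4 Y-linked genes were lower, with log2 differences of -0.82 (Ddx3y), -0.91 (Eif2s3y), -1.10 (Kdm5d) and -0.60 (Uty).

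Transporter genes differed in both directions between the treatments, as did all genes tested. Of the 63 carriers, 29 could be tested, of which 7 (24.1%) were higher with UK-5099, 12 (41.4%) were lower and 10 did not pass the test. The share called was 65.5% among these carriers and 53.8% among all genes tested. Of all genes tested, 27.2% were called higher and 26.6% lower. Among carriers whose mean reached 1000 normalized counts, 10 of 15 were called, against 68.3% of all genes at that level. The median size of the log2 difference was 0.39 over the 29 carriers and 0.30 over all genes tested, and the signed medians were -0.17 and -0.0005. Values did not overlap between the groups for 19 of the 29, against 60.8% of all genes tested. With libraries centred on their median gene, 15 members were lower and 7 higher, while the share of higher genes among all called genes went from 50.6% to 39.1%. The plot of values by library and the plot of differences show the 29 carriers by role.

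**Figure D1:**
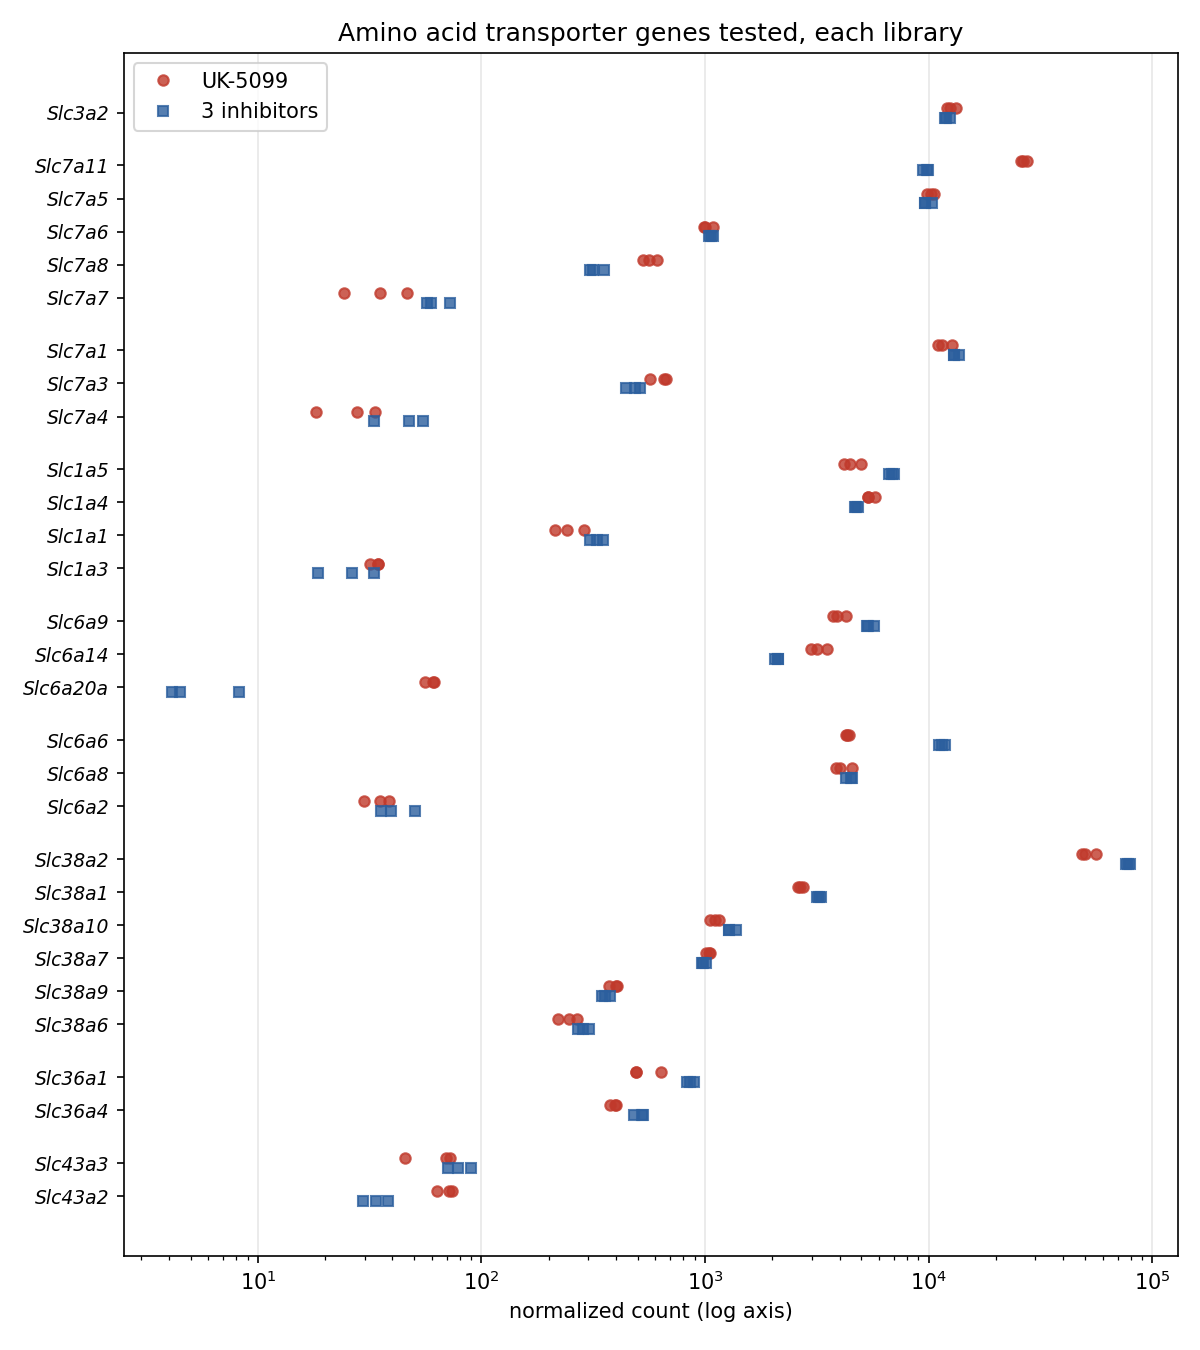
Normalized count (x axis, log scale) of each of the 29 tested carrier genes (y axis, grouped by role) in each library, with red circles for the 3 UK-5099 libraries and blue squares for the 3 libraries of 3 inhibitors. Slc7a11 and Slc6a20a are clearly separated to the right with UK-5099, Slc6a6 and Slc38a2 to the left, and Slc3a2 and Slc7a5 overlap.

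**Figure D2:**
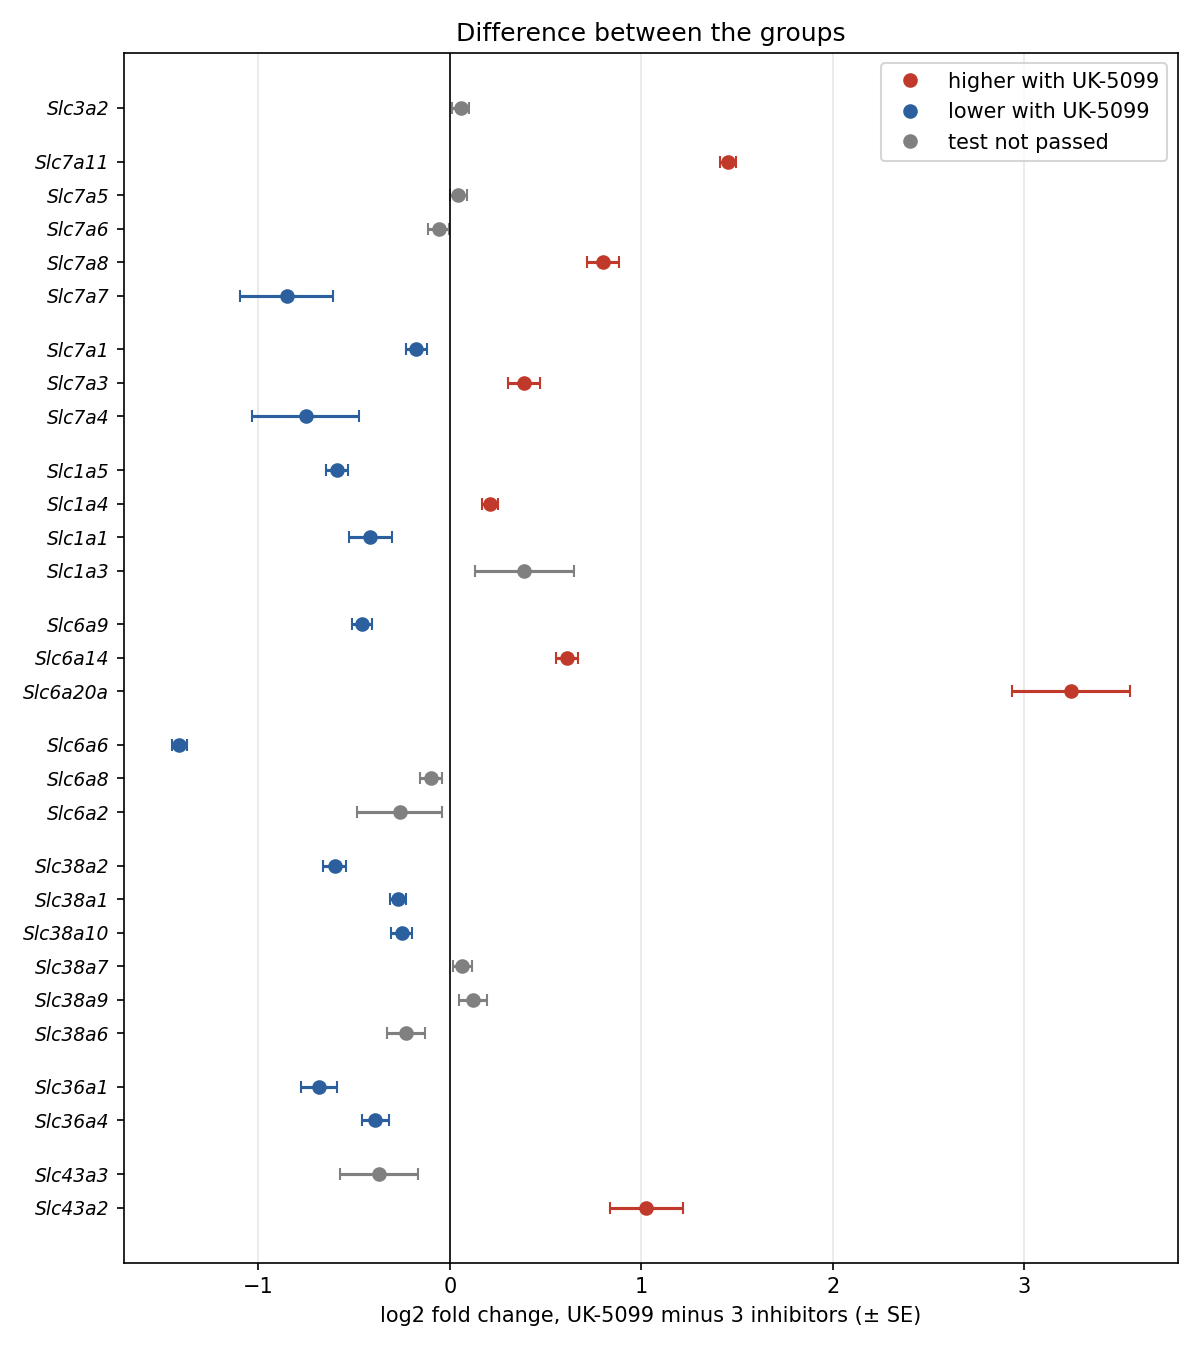
Log2 fold change (x axis, UK-5099 minus 3 inhibitors) of the same 29 genes, with bars for the SE of the fit. Red marks the 7 genes called higher, blue the 12 called lower and grey the 10 that did not pass the test, with Slc6a20a at 3.24 and Slc6a6 at -1.41 as the extremes.

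The heavy chain was alike in level between the groups. Of the 5 SLC7 light chains tested, 2 were higher, 1 was lower and 2 were not called. Slc3a2 (ENSMUSG00000010095) encodes CD98hc, the chaperone and anchor of most SLC7 exchangers at the plasma membrane. It stood at 12470, 12132 and 13275 normalized counts in UK-5099 replicates 1, 2 and 3 and at 12482, 12003 and 11892 in the 3-inhibitor replicates. These values overlap, with a log2 difference of 0.06 ± 0.04 (adjusted p = 0.305), which turned to -0.03 when libraries were centred on the median gene. The other heavy chain, Slc3a1, which serves the cystine carrier of kidney and gut, was below the low filter, with at most 8.94 normalized counts in any library.

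Slc7a11 (ENSMUSG00000027737) had the largest difference among the light chains tested. It encodes xCT, which takes up cystine in exchange for glutamate and so supplies cysteine for glutathione. It stood at 26425, 26003 and 27409 normalized counts with UK-5099 and at 9808, 9942 and 9394 with the 3 inhibitors. All UK-5099 libraries lay far above all others, a 2.74-fold difference (log2 1.45 ± 0.04, adjusted p = 3.25e-10).

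The start region of Slc7a11 is shown because this gene is a textbook target of ATF4, the transcription factor of the amino acid response, and that of Slc38a2 because it had the highest level per length of the carriers and went the other way. Both are the 250 bases before the annotated start from RefSeq (GRCm38.p6), 5′ to 3′ on the gene's own strand, at chr3:50443614-50443863 (minus strand) and chr15:96699729-96699978 (minus strand). Capitals mark matches to TGATGNAA, a form of the amino acid response element, or TGACNNNGC, the core of the antioxidant response element, on either strand.
Slc7a11: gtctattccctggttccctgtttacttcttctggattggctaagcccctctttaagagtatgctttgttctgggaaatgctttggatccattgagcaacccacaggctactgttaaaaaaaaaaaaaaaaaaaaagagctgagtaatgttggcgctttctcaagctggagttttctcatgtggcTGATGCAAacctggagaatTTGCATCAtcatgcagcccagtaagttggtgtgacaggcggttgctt
Slc38a2: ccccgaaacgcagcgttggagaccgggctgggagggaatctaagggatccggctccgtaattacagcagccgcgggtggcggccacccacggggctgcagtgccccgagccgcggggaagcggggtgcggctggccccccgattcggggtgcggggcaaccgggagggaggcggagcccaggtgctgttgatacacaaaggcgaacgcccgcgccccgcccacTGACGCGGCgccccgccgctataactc
The Slc7a11 sequence holds TGATGNAA in both orientations, at positions -66 to -59 and -47 to -40 from the start, and no TGACNNNGC. The Slc38a2 sequence holds a match to TGACNNNGC at -27 to -19 and none to TGATGNAA. Sequence further from the starts, such as the rest of the gene, was not searched, so a lack of a match holds only for these bases. In windows of 300 bases (250 before and 50 after a start), TGATGNAA was found in 3.97% of 32851 RefSeq windows, at least 2 copies in 0.070%, and TGACNNNGC in 12.4%. Start regions were in the table for 21 of the 30 members tested, some with more than 1 start. Of these, Slc7a11, Slc1a4 (-4 to 4) and Slc7a7 held TGATGNAA. Slc7a7, which was called lower, also held 2 copies in 1 window (-141 to -134 and -1 to 7). The window of its other start overlaps this one, and its match (-243 to -236) is the same site as that at -1 to 7. The genes Slc6a9, Slc7a1, Slc7a6, Slc36a1 and Slc38a2 held TGACNNNGC. No match of either kind overlapped a match of the other in the printed sequences. A match is a description of letters and not a binding site.

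The light chains Slc7a5 and Slc7a6 did not follow Slc7a11. Slc7a5 (LAT1, ENSMUSG00000040010), the main importer of leucine and other large neutral amino acids, stood at 10204, 9785 and 10621 normalized counts with UK-5099 and at 10342, 9673 and 9671 with the 3 inhibitors. The groups overlap (log2 0.04 ± 0.05, adjusted p = 0.444), and the value was -0.04 after centring on the median gene. Slc7a6, an exchanger of cationic for neutral amino acids, stood at 988, 1004 and 1082 against 1043, 1069 and 1087 normalized counts (log2 -0.06 ± 0.05, adjusted p = 0.385). It passed the test only after median centring (log2 -0.15, adjusted p = 0.0400, in a range over the alternatives from 0.0400 to 0.691). Slc7a6os overlaps it on the other strand and the counting is not stated to use strand. Slc7a6os had a log2 difference of 0.08 ± 0.09 (adjusted p = 0.474), with a sign that changed in 2 alternatives.

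Slc7a8 and Slc7a7 differed in opposite directions. Slc7a8 (LAT2), a broad neutral exchanger of the basolateral side of epithelia, stood at 562.9, 525.3 and 609.0 normalized counts with UK-5099 and at 353.5, 314.6 and 306.9 with the 3 inhibitors. Every UK-5099 library was above every other, 1.74-fold on the fitted scale (log2 0.80 ± 0.08, adjusted p = 8.71e-06). Slc7a7 (y+LAT1), which exports arginine and lysine, was low, at 24.4, 46.4 and 35.3 against 72.2, 57.2 and 59.4 normalized counts. Its groups did not overlap and it was called lower (log2 -0.85 ± 0.24, adjusted p = 0.0112), but the call ended without 3-inhibitor replicate 1 (adjusted p = 0.0517, the highest of the alternatives, with 0.00204 as the lowest). Slc7a9, Slc7a10, Slc7a12 and Slc7a13 were at 0 in every library, and Slc7a15 had 2 reads in all.

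Levels of different genes were set side by side per kilobase of exon, using union exon lengths from GENCODE M21. Slc3a2 stood at 3578 ± 166 normalized counts per kb with UK-5099 and 3436 ± 88.9 with the 3 inhibitors, and Slc7a5 came next at 2752 ± 113 and 2669 ± 104. Slc7a11 stood at 1912 ± 51.8 and 697.8 ± 20.5 per kb. Slc7a6, Slc7a8 and Slc7a7 followed at 224.2 ± 10.97, 113.0 ± 8.37 and 10.7 ± 3.32 per kb with UK-5099, an order that held in all 6 libraries with union exon lengths. With the longest transcript in their place, Slc7a11 and Slc7a5 were about equal with UK-5099, at ratios of 0.988, 1.01 and 0.984, while Slc7a11 stayed below with the 3 inhibitors. Summed over the 5 light chains tested, the level per kb was 1.41, 1.41 and 1.38 times that of Slc3a2 with UK-5099 and 1.08, 1.07 and 1.07 times with the 3 inhibitors. With the longest annotated transcript in place of the union length, the ratios averaged 1.38 and 0.988, so their size depends on the length used. The ratio of Slc7a11 to Slc3a2 counts, in which length does not alter the comparison of groups, was 2.11 ± 0.04 with UK-5099 and 0.801 ± 0.023 with the 3 inhibitors.

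**Figure D3:**
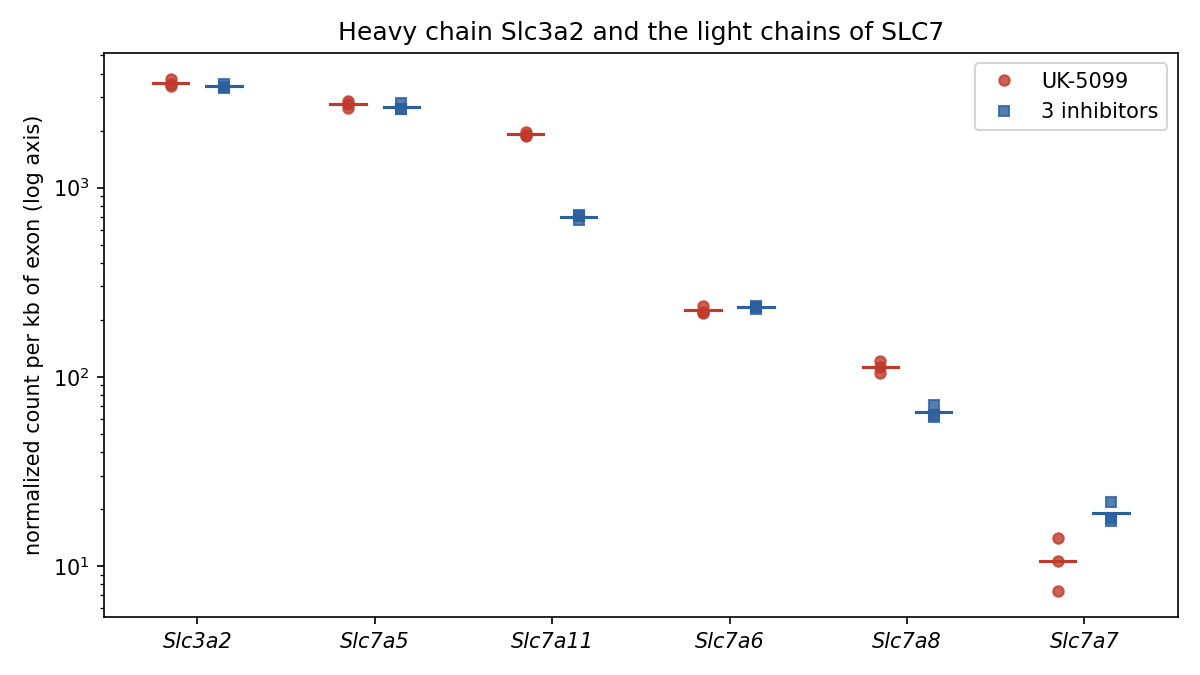
Normalized count per kb of exon (y axis, log scale) of the heavy chain Slc3a2 and the 5 light chains tested (x axis), with red circles for UK-5099 libraries, blue squares for libraries of 3 inhibitors and lines for group means. Slc3a2, Slc7a5 and Slc7a6 overlap between the groups, Slc7a11 and Slc7a8 are higher with UK-5099 and Slc7a7 is lower.

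The cationic carriers of SLC7, which import arginine, lysine and ornithine without a heavy chain, were split. Slc7a1 (CAT1, ENSMUSG00000041313), the widespread member, stood at 11435, 10964 and 12749 normalized counts with UK-5099 and at 13671, 12992 and 12941 with the 3 inhibitors. The groups were apart by a small margin and it was called lower (log2 -0.17 ± 0.06, adjusted p = 0.0187). That call ended without UK-5099 replicate 1 or 2 (adjusted p = 0.0788 and 0.0600) and without 3-inhibitor replicate 1 (0.0839), in a range over the alternatives from 5.88e-05 to 0.0936. Slc7a3 (CAT3), a related arginine carrier on the X chromosome, was higher, at 566, 666 and 655 against 513, 488 and 441 normalized counts (log2 0.39 ± 0.08, adjusted p = 0.00198). Slc7a4, an orphan of this branch, stood at 33.5, 27.8 and 18.3 against 47.4, 33.1 and 54.8 normalized counts. These values overlap, and its lower call (log2 -0.75 ± 0.28, adjusted p = 0.0405) ended in 7 of 15 alternatives, including the fits that left out UK-5099 replicate 3 (adjusted p = 0.108) or 3-inhibitor replicate 1 (0.111) or 3 (0.159), with 0.0244 as the lowest value of any alternative and 0.159 as the highest. Slc7a14 had 5 reads in all. Slc7a2 (CAT2) was below the filter, with 0, 1.86 and 0 normalized counts against 7.22, 13.4 and 12.8, or 2 reads against 36. Without the filter it was called lower (adjusted p = 0.000427).

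Among the SLC1 carriers, the neutral pair went opposite ways. Slc1a5 (ASCT2, ENSMUSG00000001918), the sodium-dependent exchanger known for glutamine uptake, stood at 4465, 4202 and 4973 normalized counts with UK-5099 and at 6973, 6667 and 6862 with the 3 inhibitors. All UK-5099 libraries were below all others, 1.51-fold (log2 -0.59 ± 0.06, adjusted p = 4.47e-06). Slc1a4 (ASCT1), which exchanges alanine, serine and cysteine, stood at 5367, 5358 and 5734 against 4813, 4688 and 4746. It was higher without overlap, by a small amount (log2 0.21 ± 0.04, adjusted p = 0.00121).

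Glutamate carriers were scarce. Slc1a1 (EAAC1), an epithelial and neuronal carrier of glutamate and cysteine, stood at 241.8, 212.5 and 288.6 against 350.5, 306.5 and 328.9 normalized counts and was lower (log2 -0.42 ± 0.11, adjusted p = 0.00872). Slc1a3 (GLAST), best known from glia, stood at 33.5 ± 1.61 and 26.0 ± 7.27 and did not pass the test (adjusted p = 0.231). Slc1a2, the main glial carrier, had 10 reads in all, and Slc1a6 and Slc1a7 none.

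The SLC6 carriers of amino acids held the member with the largest fold. Slc6a20a (ENSMUSG00000036814), a carrier of proline and other imino acids, stood at 55.9, 61.3 and 60.9 normalized counts with UK-5099 and at 4.12, 4.47 and 8.22 with the 3 inhibitors. It was 9.47-fold higher on the fitted scale (log2 3.24 ± 0.31, adjusted p = 4.04e-06), from 171 reads against 18, and the log2 value ran from 2.62 to 3.51 over the alternatives. It passed the filter only through its UK-5099 libraries, and reads can be shared with its close copy Slc6a20b, which was below the filter (8.13, 3.71 and 12.2 against 3.09, 4.47 and 1.83).

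Slc6a14 and Slc6a9 were both abundant and differed in opposite directions. Slc6a14 (ATB0,+), an X-linked carrier of neutral and cationic amino acids known from airway epithelium, stood at 3156, 2985 and 3494 against 2051, 2121 and 2124 normalized counts. The groups did not overlap, with a 1.53-fold higher level with UK-5099 (log2 0.61 ± 0.06, adjusted p = 3.17e-06). The X-linked members tested were Slc6a14, Slc7a3 and Slc6a8. Of all 496 X-linked genes tested, 28.8% were called higher, with a median log2 difference of 0.04, and the part of the Xist difference in these values was not tested. Slc6a9 (GLYT1), a glycine carrier, stood at 3910, 3753 and 4270 against 5717, 5300 and 5353 and was lower (log2 -0.46 ± 0.05, adjusted p = 2.03e-05). Slc6a19, the main neutral carrier of gut and kidney, had 11 reads, and its call without the filter (adjusted p = 0.0316) rests on these. Slc6a15 had 9 reads, and Slc6a5, Slc6a7, Slc6a17 and Slc6a18 were at 0.

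Slc6a6 had the lowest log2 difference of the carriers tested. This gene (ENSMUSG00000030096) encodes TauT, which concentrates taurine, an osmolyte and antioxidant. It stood at 4274, 4388 and 4314 normalized counts with UK-5099 and at 11885, 11172 and 11513 with the 3 inhibitors. The groups are far apart, 2.66-fold lower with UK-5099 (log2 -1.41 ± 0.04, adjusted p = 2.62e-10). Slc6a8, the X-linked creatine carrier, stood at 4008, 3870 and 4542 against 4483, 4253 and 4548, values that overlap (log2 -0.10 ± 0.06, adjusted p = 0.172). It was called lower without UK-5099 replicate 3 (log2 -0.17, adjusted p = 0.00221) and after median centring (adjusted p = 0.0179), in a range over the alternatives from 0.00221 to 0.457. Slc6a2, the noradrenaline carrier, was low and not called (34.5 ± 4.51 against 41.8 ± 7.75). The GABA carrier Slc6a11 was at 0, and Slc6a12, Slc6a13 and Slc6a3 had 3, 4 and 1 reads. Slc6a4, the serotonin carrier, had 6 reads with UK-5099 and 0 with the 3 inhibitors (called without the filter, adjusted p = 0.0197).

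No member of the SLC38 family was called higher. Slc38a2 (SNAT2, ENSMUSG00000022462), the amino-acid-regulated importer of glutamine and alanine whose start region is printed above, stood at 48386, 49790 and 56301 normalized counts with UK-5099 and at 76345, 79223 and 78205 with the 3 inhibitors. All UK-5099 libraries lay below all others, 1.52-fold (log2 -0.60 ± 0.06, adjusted p = 6.37e-06). Per kb of exon it was the highest of the carriers in both groups, at 5826 and 8817. Slc38a1 (SNAT1), a glutamine importer of growing cells, stood at 2748, 2610 and 2657 against 3224, 3159 and 3295 and was lower (log2 -0.27 ± 0.04, adjusted p = 0.000169).

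The remaining SLC38 genes include carriers of internal membranes. Slc38a10 stood at 1159, 1051 and 1103 against 1285, 1281 and 1382 normalized counts and was lower (log2 -0.25 ± 0.06, adjusted p = 0.00228). The lysosomal members Slc38a7, a glutamine exporter, and Slc38a9, the arginine sensor of mTORC1, did not pass the test. Slc38a7 stood at 1040, 1007 and 1050 against 973, 1007 and 980 (log2 0.07 ± 0.05, or -0.02 after median centring), and Slc38a9 had a log2 difference of 0.12 ± 0.08. Slc38a6 did not overlap between the groups (268, 220 and 246 against 271, 304 and 285) but missed the threshold (log2 -0.23 ± 0.10, adjusted p = 0.0673). It passed without UK-5099 replicate 1 (0.0404) and after median centring (0.0163), in a range over the alternatives from 0.0163 to 0.215. Slc38a3, Slc38a4 and Slc38a8 had 10, 1 and 2 reads in all, and Slc38a5 and Slc38a11 none.

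Both proton-coupled SLC36 carriers tested were lower with UK-5099. Slc36a1 (PAT1), which exports small neutral amino acids from lysosomes, stood at 490.7, 490.9 and 634.5 against 854.5, 832.9 and 892.5 normalized counts, 1.61-fold lower (log2 -0.68 ± 0.09, adjusted p = 7.13e-05). Slc36a4 (PAT4), a carrier of proline and tryptophan, stood at 399, 394 and 376 against 525, 529 and 481 (log2 -0.39 ± 0.07, adjusted p = 0.000615). In both the groups are apart, and UK-5099 replicate 3 is the highest of its group for Slc36a1. This library was the highest of its group for 16 of the 29 carriers and for 6760 of all 15704 genes tested, and UK-5099 replicate 2 was the lowest for 19 carriers and for 6355 of all genes. Slc36a2 had 3 reads and Slc36a3 none.

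Of the SLC43 carriers, Slc43a2 (LAT4), which passes large neutral amino acids without sodium or a heavy chain, was higher, at 74.2, 63.1 and 71.9 against 38.1, 29.5 and 33.8 normalized counts. The groups did not overlap, 2.04-fold (log2 1.03 ± 0.19, adjusted p = 0.000684). Slc43a3, a nucleobase carrier by function, stood at 72.1, 45.5 and 69.4 against 89.7, 70.6 and 78.6 (log2 -0.37 ± 0.20, adjusted p = 0.147). Slc43a1 (LAT3) had 10 reads. Slc6a16, Slc6a21 and the opposite-strand genes Slc6a19os, Slc36a1os and Slc36a3os were at 0 in every library.

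Summed per kb, carrier transcripts differed in make-up between the treatments. Slc38a2 made up 25.6, 26.7 and 27.2% of the sum with UK-5099 and 34.3, 36.1 and 35.6% with the 3 inhibitors. Slc7a11 made up 8.86, 8.85 and 8.42% against 2.80, 2.88 and 2.72%. Slc1a5 made up 4.95 ± 0.17% against 6.56 ± 0.11%, and Slc1a4 6.36 ± 0.11% against 4.85 ± 0.03%. The order of Slc1a5 and Slc1a4 depends on the length used: with UK-5099 Slc1a5 was below Slc1a4 per kb of union exon length (1090 against 1397) and above it per kb of longest transcript (1620 against 1397), and with the 3 inhibitors it was above by both. Uncorrected for length, all carriers together took 0.613 ± 0.030% of a UK-5099 library's normalized counts, against 0.697 ± 0.0077% for the 3 inhibitors. The SLC38 genes summed to 56940 ± 4210 against 84100 ± 1496 normalized counts, and the SLC7 light chains to 38442 ± 1214 against 21064 ± 550.

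**Figure D4:**
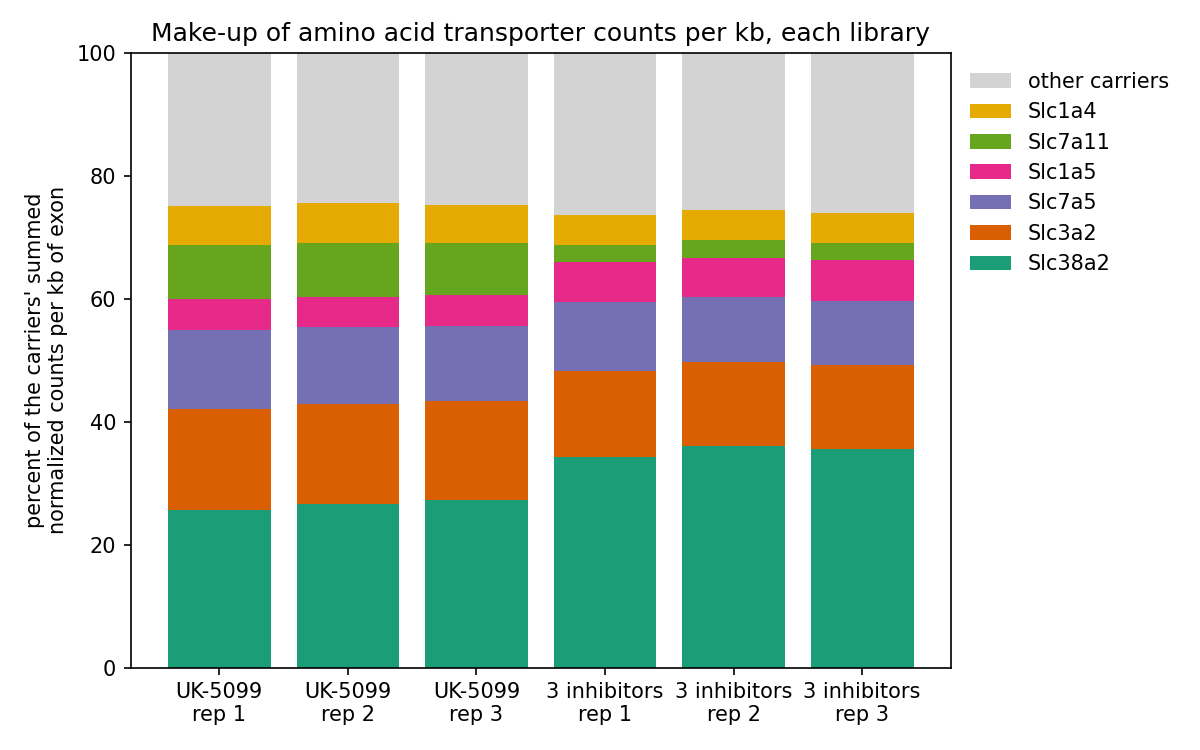
Percent of the carriers' summed normalized counts per kb of exon (y axis, from 0 to 100) in each library (x axis), for the 6 genes with the highest mean share over all 6 libraries and all other carriers. The share of Slc38a2 is 25.6 to 27.2% in the UK-5099 libraries and 34.3 to 36.1% in the others, and that of Slc7a11 is 8.42 to 8.86% and 2.72 to 2.88%.

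Of 13 tested genes for proteins that bind or regulate these carriers, 4 were higher and 5 lower. That is 69.2% called, near the 68.3% among all genes whose mean reached 1000 normalized counts. Cd44, a surface receptor known to stabilize xCT, stood at 5834 ± 648 against 3473 ± 108 normalized counts (log2 0.74 ± 0.07, adjusted p = 2.64e-06). The ubiquitin ligase Nedd4l and the kinase Sgk1, which oppose each other in the control of sodium-coupled carriers, were both lower, with log2 differences of -1.14 ± 0.06 and -1.81 ± 0.06. Sgk1 stood at 1999 ± 136 against 7009 ± 354. Sgk3 was higher (0.35 ± 0.05). Arl6ip5, an inhibitor of the Slc1a1 protein, was lower (-0.57 ± 0.05), as were Bsg, a chaperone of lactate carriers (-0.85 ± 0.04), and Laptm4b, which brings Slc7a5 and Slc3a2 to lysosomes (-0.27 ± 0.05). For the 6 genes from Nedd4l to Laptm4b the adjusted p was at most 0.00116. Nedd4 was called higher by a small amount (0.10 ± 0.04, adjusted p = 0.0406), and that call ended in 9 of 16 alternatives, among them those without UK-5099 replicate 1 or 2 or any 3-inhibitor replicate (adjusted p from 0.0510 to 0.116, with 0.00492 and 0.802 as the extremes of all 16). Itgb1, Otub1, Txnip and Lamtor1 did not pass the test, with log2 differences of 0.06, 0.03, 0.12 and -0.11. The values of Itgb1 and Otub1 turned negative after median centring, and that of Txnip without 3-inhibitor replicate 2. Lamtor1 passed in 3 alternatives, among them that without UK-5099 replicate 3 (adjusted p = 0.0176, with extremes of 0.00244 and 0.181).

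Carriers outside these families differed in both directions. Of 19 other amino acid and peptide carriers tested, 7 were lower and 2 higher. That is 47.4% called, against 53.8% of all genes tested. The 2 higher were Slc15a1 (log2 1.72 ± 0.32) and the mitochondrial Slc25a12 (0.28 ± 0.05), both chosen after their values were seen. Slc15a1 passed the filter only through its UK-5099 libraries (28.7 ± 8.09 against 7.82 ± 0.968 normalized counts). The lysosomal cystine exporter Ctns stood at 873 ± 147 against 1507 ± 23.4 normalized counts (log2 -0.80 ± 0.09, adjusted p = 2.18e-05). Slc66a1, which exports lysine and arginine from lysosomes, was lower (-0.71 ± 0.08), as were Cln3 (-0.94 ± 0.07), a lysosomal membrane protein, and Slc15a4 (-0.53 ± 0.08), a lysosomal histidine and peptide carrier. Other carriers of lysosomes or related vesicles did not pass the test, with log2 differences of 0.03 ± 0.17 for Mfsd12, 0.38 ± 0.21 for Slc17a9 and -0.004 ± 0.053 for Slc66a2, also chosen after their values were seen (adjusted p = 0.912, 0.155 and 0.955). The median over the 19 was -0.004, against -0.0005 over all genes tested.

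Genes that make, use or break down glutathione, listed together with genes of the antioxidant response, were mostly higher. Of 19 tested, 13 were higher and 2 lower, with a median log2 difference of 0.58. That is 78.9% called, against 53.8% of all genes tested. Gclc, the catalytic subunit of the first step, stood at 28661 ± 1686 against 12766 ± 26.8 normalized counts (log2 1.17 ± 0.05, adjusted p = 5.34e-09). Cth, which makes cysteine from cystathionine, was 1.72-fold higher, and Nqo1, a target of the antioxidant factor NRF2, was 4.48-fold higher. Gpx4, which uses glutathione to detoxify lipid peroxides, was lower (-0.80 ± 0.04).

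The amino acid response list, which holds ATF4 with its targets, gave 19 higher and 10 lower of 38 tested (76.3% called), with a median of 0.12. Over all genes tested 53.8% were called, with a median of -0.0005. Its 4 genes of smallest adjusted p were split: the leucyl-tRNA synthetase gene Lars (0.71 ± 0.05) and Cth (0.78 ± 0.05) were higher, whereas the secreted factors Gdf15 (-1.10 ± 0.07) and Stc2 (-0.69 ± 0.04) were lower. Genes of amino acid sensing by mTORC1 were 10 higher and 14 lower of 39 (61.5% called, median -0.08). Rragc and Rragd, GTPases that dock mTORC1 on lysosomes, were lower (-0.62 ± 0.04 and -1.09 ± 0.07), as was the mTOR inhibitor Deptor (-0.84 ± 0.05), and the activator Rheb was higher (0.48 ± 0.04).

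Enzymes that use the carried amino acids were also examined, beside 53.8% called and a median of -0.0005 over all genes tested. Of 18 genes for glutamine, glutamate and proline, 11 were higher and 3 lower (77.8% called, median 0.22). Asns, which makes asparagine from glutamine, stood at 12723 ± 218 against 9101 ± 89.3 normalized counts (log2 0.48 ± 0.04). Cad and Oat were higher (0.60 ± 0.05 and 0.55 ± 0.04), and Glul, which makes glutamine, was lower (-0.97 ± 0.08). Of 11 genes for arginine, 5 were higher and 3 lower (72.7% called, median 0.46). The polyamine enzymes Odc1 and Srm were higher (1.02 ± 0.04 and 0.66 ± 0.05), and of the pair that remakes arginine from citrulline Ass1 was higher (0.69 ± 0.05) and Asl lower (-0.71 ± 0.06). Of 20 genes for branched-chain amino acids, 5 were higher and 6 lower (55% called, median -0.01). Bcat2, the mitochondrial transaminase, and Bckdha were lower (-0.48 ± 0.06 and -0.67 ± 0.10), and Bckdhb and the inhibitory kinase Bckdk were higher (0.58 ± 0.11 and 0.32 ± 0.05). Among the genes named as higher or lower, from Slc15a1 to Bckdhb, the largest adjusted p was 0.00111.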

How the data were processed

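RNA was sequenced from 6 libraries, and per the values, what the authors deposited is in a unit other than counts: log2 of normalized counts, that is, reads over 1 size factor for each library. A text mark stands for 0. Per the submitters' processing notes, HISAT2 2.1.0, DESeq2 1.36.0 and GRCm39 were used. What each was used for is not stated there, nor are the read counter or the annotation. Of 57107 rows, 359 repeated a gene identifier and held the same values. Values were raised back from log2, and reads were recovered as multiples of the smallest nonzero value, which gave whole numbers (within 0.02) for 99.99% of nonzero values per library.

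Genes whose mean reached 10 normalized counts were fitted with limma 3.58.1 in R 4.3.3 (two-sided tests, trended eBayes) on log2(normalized count + 1), with group as the only term and Benjamini-Hochberg adjustment over all genes tested. The fit was tested on simulated data. The members and all gene lists were chosen with earlier results of these data known. All tested members are named. All library values are given for those called with at least a 1.5-fold change or whose mean reached 1000 normalized counts, and in part for others. Of each pathway list up to 4 called genes of smallest adjusted p are named, and of carrier partners those tested. Values of 2 genes are not reported here. Alternatives were pseudocounts of 0.5 and 5, no filter, a minimum mean of 50, median centring, upper-quartile rescaling, robust or untrended limma, limma-voom on the recovered reads, a replicate block, and leaving out each library in turn. Exon lengths came from GENCODE M21 (GRCm38), another build than that of the files, and were used only as lengths. Start regions came from RefSeq (GRCm38.p6). Scripts ran in Python 3.11.15.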

Additional observations from a re-analysis of the deposited data

How the results depend on the processing

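The counts of members called changed by less than 1.5 times in every one of the 16 alternatives, from 6 to 8 higher and from 9 to 15 lower, and all genes called ran from 7336 to 9146. Leaving out 1 library gave 7 higher in each fit and 9 to 12 lower. Of the 30 members tested, 20 kept their direction and their side of the threshold in all alternatives that tested them, Slc7a11, Slc6a6, Slc38a2 and Slc1a5 among them, as did 34 of 40 other genes examined. The labels do not say whether the replicate numbers pair the libraries. Same-numbered libraries had correlations of deviations of -0.017, 0.1163 and -0.0886. Those of other pairs ran from -0.1978 to 0.1931, so these values cannot decide whether libraries are paired. With the replicate block 7 members were higher and 12 lower, 8423 genes were called in all, and of these genes Nedd4 alone lost its call (adjusted p = 0.0542). Median centring turned the sign of the log2 difference of members and partners that were not called, namely Slc3a2 (-0.031), Slc7a5 (-0.044), Slc38a7 (-0.024), Slc7a6os (-0.0060), Itgb1 (-0.033) and Otub1 (-0.060). Slc7a6os also turned without UK-5099 replicate 3 (-0.016, up to 0.173 when other libraries were left out), and Txnip without 3-inhibitor replicate 2 (-0.00087, up to 0.202 when others were). The cause was not tested. Precision was lower for genes with few reads: the SE was at most 0.06 for carriers whose mean reached 1000 normalized counts and between 0.19 and 0.31 for those with a mean under 100.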
